A study of Danio rerio with 2 samples.

Results

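Strong MYCN-only accessible sites are stretches of zebrafish chromatin that were open in neuroblastoma cells from MYCN transgenic fish, with no open site called at or near the same place in neuroblastoma cells from MYC transgenic fish. They were taken from the MYCN peak list on chromosomes 1 to 25 as the peaks with a deposited score of at least 99, the median of that list, and no MYC peak overlapping or within 1000 bp. There were 1402 such sites among 68559 MYCN peaks. They made up 4.08% of the 34354 MYCN peaks on these chromosomes that reached the score (95% Wilson interval 3.88 to 4.30), a share that the rule itself sets. The sites were chosen by their MYCN score and by the absence of a MYC peak, so both are described here and not tested.

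ATAC-seq uses the Tn5 transposase to place sequencing adapters in DNA that nucleosomes leave free, so its peaks mark open promoters, enhancers and other regulatory DNA. MYCN and MYC are closely related transcription factors that bind DNA as dimers with MAX, largely at E-box sequences in chromatin that is already open. MYCN is amplified in many high-risk human neuroblastomas, while other neuroblastomas express MYC at high levels. Neuroblastoma arises from the sympathoadrenal lineage of the neural crest, whose cells make noradrenaline.

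The MYCN sample was 1 library from EGFP-positive neuroblasts of tumour-bearing MYCN transgenic zebrafish, and the MYC sample was 1 library of such cells from MYC transgenic zebrafish. Both carried a dbh:EGFP reporter, in which regulatory DNA of the dopamine beta-hydroxylase gene, whose enzyme makes noradrenaline from dopamine, marks sympathetic neuroblasts, and 50000 sorted cells went into each library. The labels give no age, no number of fish behind a library, no promoter for the MYCN or MYC transgene and no fish without a tumour, and whether tumours were pooled is not stated. With 1 library per transgene, a difference between lists compares these libraries and not the transgenes, and no p-value was computed. The MYC list was longer, with 77836 peaks and a median score of 110. Read depth is unknown from peak lists, so a site without a MYC peak is one where none was called, not one shown to be closed. The labelled cell type could not be checked, since peak lists hold no expression, and a danRer7 gene annotation was not used here, so sites are given by position in danRer7 and not by gene.

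Most strong MYCN-only sites, called MYCN-only sites for short, lay not far above the score that admitted them. Their median score was 122, with quartiles of 109 and 152, against a median of 187 and quartiles of 132 and 283 for the 32792 strong shared sites, meaning MYCN peaks of score 99 or more that overlapped a MYC peak. Scores of 200 or more were held by 126 MYCN-only sites (8.99%) and by 14987 strong shared sites (45.7%). Only 31 MYCN-only sites reached the top 10% of the MYCN list, which began at a score of 309, and 5 had 500 or more. Just inside the limit, 26 sites had a score of 99 and 41 a score of 100, and just outside it, 20 MYCN peaks as far from MYC peaks had a score of 98 and 29 a score of 97. The share of MYCN-only sites among MYCN peaks ran from 10.6% at scores of 99 to 119 down to 0.424% at scores of 300 and above. Strong sites without a MYC peak were therefore a small tail of the MYCN list that thinned out steeply with rank.

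The sites were compact. Their widths ran from 201 to 982 bp, with a median of 322 bp and quartiles of 278 and 397 bp, and together they covered 496 kb, 3.17% of the bases of all strong MYCN peaks. The median of the strong shared sites was 416 bp, with quartiles of 325 and 543 bp. The 2716 strong MYC-only sites were found in the MYC list by the same rule with its own median score. Their median was 320 bp, with quartiles of 285 and 400 bp, close to the values of the MYCN-only sites. Widths of strong shared MYC peaks were not computed, so MYC-only sites had no comparison within their own list. Within each band of score, the MYCN-only median lay below the strong shared median. At scores of 99 to 119 the medians were 298 bp for 620 MYCN-only sites and 323 bp for 5159 strong shared sites. At scores of 200 to 299 they were 376 bp for 95 MYCN-only sites and 439 bp for 7708 strong shared sites. At scores of 300 and above they were 400 bp for 31 MYCN-only sites and 521 bp for 7279 strong shared sites. The quartile ranges overlapped in every band. A width of 500 bp or more was found at 126 MYCN-only sites (8.99%) and at 10565 strong shared sites (32.2%). Across the MYCN-only sites, score and width had a Spearman correlation of 0.32, given as a description since both values come from the same peak call.

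**Figure D1:**
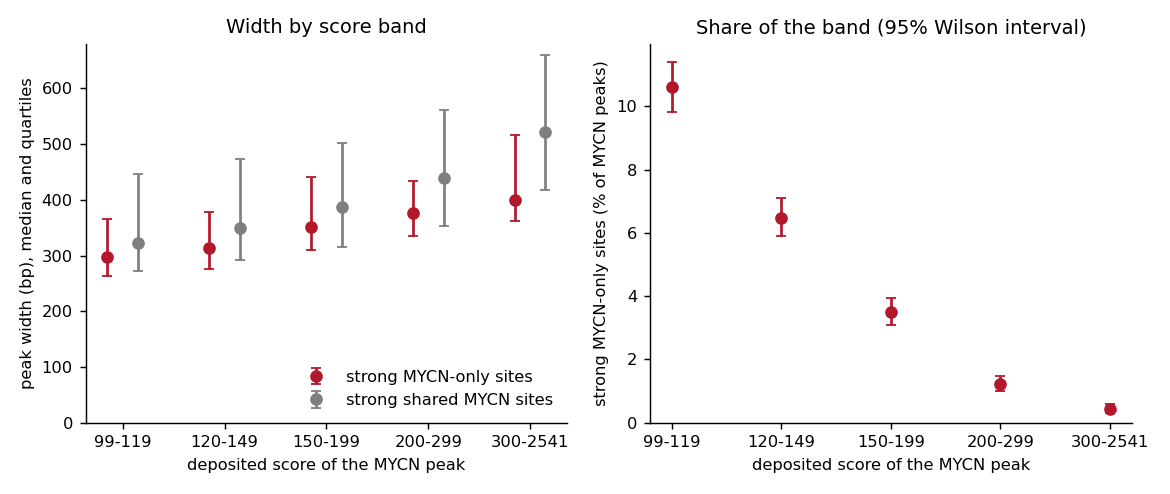
Left, median width in bp with quartiles as bars, by band of the deposited score, for strong MYCN-only sites and strong shared MYCN sites; right, strong MYCN-only sites as a percentage of all MYCN peaks in the band, with 95% Wilson intervals. The MYCN-only medians lie below the shared medians in all 5 bands, and the share falls from 10.6% to 0.424%.

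The widest sites were a mixed set by score. The widest was 982 bp, at chr6:43357148-43358129, with a score of 656. It was followed by a site of 974 bp at chr14:46260320-46261293, whose score was only 112. A site of 947 bp at chr23:43674175-43675121 had a score of 316 and 1 other MYCN peak and 3 MYC peaks within 50 kb, all of them list-only, meaning that no peak of the other list overlapped them. The next widest were 872 bp at chr6:56380429-56381300, with a score of 105, and 870 bp at chr22:32362728-32363597, with a score of 159. Great width thus occurred at both high and low scores. At the other end, the narrowest site was 201 bp, at chr2:18576131-18576331, and it still had a score of 122. Of the 5 narrowest, 2 belonged to a single group on chromosome 17.

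The score of the leading site differed widely between chromosomes. It ran from 812 on chromosome 6, which ranked 72 in the MYCN list, to 169 on chromosome 20, which ranked 18899. Chromosomes 22, 5 and 19 followed chromosome 6, with leading scores of 535, 502 and 457. Their surroundings were not alike. The chromosome 22 site, at 7710038 to 7710653, stood 105 kb from the nearest MYC peak and had 1 other MYCN peak and no MYC peak within 50 kb. The chromosome 5 site, at 8181792 to 8182290, had 3 MYCN and 3 MYC peaks within 50 kb. The chromosome 19 site, at 33446786 to 33447361, had no other MYCN peak within 50 kb and 2 MYC peaks, both of them MYC-only.

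Other chromosomes had their leading site among many peaks of both lists. On chromosome 18, the site at 30025862 to 30026158 had a score of 332. Within 50 kb lay 16 MYCN peaks, 1 of them MYCN-only, and 15 MYC peaks. On chromosome 3, the site at 44938566 to 44938902 had a score of 342. In that range it had 10 MYCN peaks, 4 of them MYCN-only, and 7 MYC peaks. On chromosome 23, the site at 2175076 to 2175455 had a score of 406, with 9 MYCN peaks, 3 of them MYCN-only, and 7 MYC peaks. By contrast, the chromosome 7 site at 6674907 to 6675249, with a score of 398, had 1 other MYCN peak and 1 MYC peak within 50 kb. On chromosome 10 the site at 41168389 to 41168790 had a score of 213, no other MYCN peak within 88.4 kb and 1 MYC peak within 50 kb. A high score was therefore found both in peak-rich and in nearly empty stretches.

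Leading sites also differed in how close a MYC peak came. The chromosome 13 site, at 5786972 to 5787347 with a score of 256, was 1730 bp from a MYC peak, inside an interval without MYC peaks of only 4.40 kb. The leading sites of chromosomes 1 and 12 both had a score of 379, at 3453113 to 3453478 and at 8121888 to 8122266, and lay 2835 and 2655 bp from a MYC peak. On chromosome 4 the leading site, at 56386548 to 56387080 with a score of 282, was 43.5 kb from a MYC peak, and the interval without MYC peaks around it spanned 151 kb and held 5 MYCN peaks. The leading sites of chromosomes 15 and 17, with scores of 251 and 285, were 28.4 and 31.4 kb from a MYC peak.

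The sites were spread over all 25 chromosomes. The counts ran from 36 on chromosome 25 to 96 on chromosome 7, or 1.03 sites per Mb over all. As a share of the strong MYCN peaks of a chromosome they ran from 3.03% on chromosome 10 (2.21 to 4.15) to 5.81% on chromosome 4 (4.52 to 7.43), against 4.08% over all. The Wilson interval lay above the share of all on 3 chromosomes, which were chromosomes 4, 1 (5.40%, 4.42 to 6.58) and 7 (5.17%, 4.25 to 6.28), and below it on none. Sites that lie together make such intervals too narrow. Per Mb, chromosome 1 had most, at 1.51. Chromosome 4 taken whole had 0.934, below the 1.03 of all, with 999 strong MYCN peaks up to its last peak at 62.1 Mb. Chromosome 4 was also high for strong MYC-only sites, with 171 of 1359 strong MYC peaks (12.6%, 10.9 to 14.5), against 6.83% over all, so a high share there was found in both lists.

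**Figure D2:**
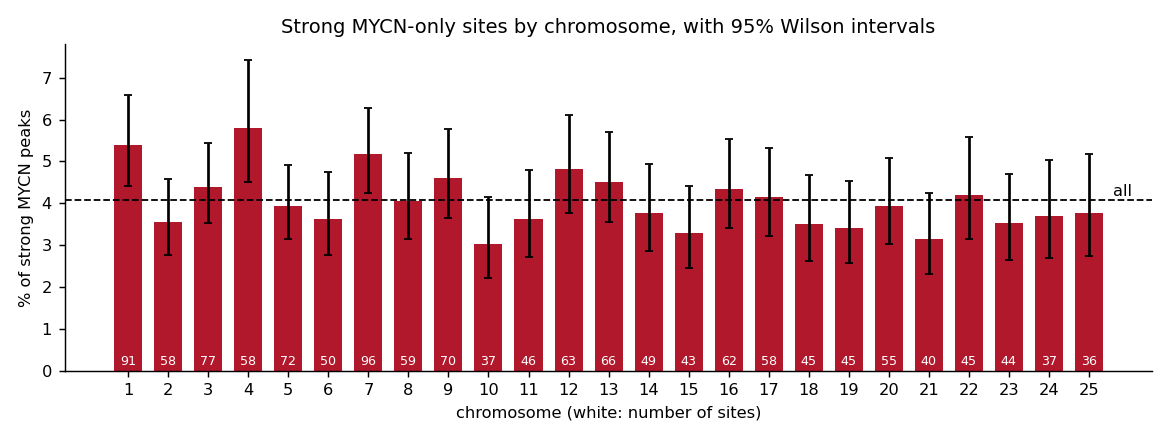
Strong MYCN-only sites as a percentage of all MYCN peaks of score 99 or more on each of the 25 chromosomes, with 95% Wilson intervals for counting error and the number of sites in white. The dashed line is the 4.08% of all chromosomes; the intervals of chromosomes 1, 4 and 7 lie above it.

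Within chromosome 4 the sites lay mostly beyond 22 Mb, and the long arm of this chromosome is known to be rich in heterochromatin. Before 22 Mb there were 11 sites among 538 strong MYCN peaks (2.04%, 1.15 to 3.62), and from 22 Mb on there were 47 among 461 (10.2%, 7.75 to 13.3). The strong MYC-only share was high in both parts, at 116 of 880 strong MYC peaks before 22 Mb (13.2%, 11.1 to 15.6) and 55 of 479 from there on (11.5%, 8.93 to 14.6). Over all chromosomes, 99 of 3036 strong MYCN peaks within 2 Mb of a chromosome's start or last peak were such sites (3.26%, 2.69 to 3.95), against 1303 of 31318 elsewhere (4.16%, 3.94 to 4.39). With each chromosome cut into 10 parts of equal length, the share ran from 3.19% in part 6 (2.66 to 3.82) to 5.48% in part 8 (4.74 to 6.34), and the other parts lay between 3.72% and 4.44%.

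In windows of 1 Mb, 808 of the 1369 windows that held a MYCN peak held a site. A single site was found in 438 windows, 2 sites in 231 and 5 or more in 20. The fullest window was on chromosome 1 at 59 to 60 Mb, where 7 of 40 strong MYCN peaks were such sites. In the same window 1 of 32 strong MYC peaks, those at or above the MYC median score, had no MYCN peak within 1000 bp. Chromosome 16 at 17 to 18 Mb held 6 sites among 20 strong MYCN peaks, and chromosome 1 at 33 to 34 Mb held 6 among 29. Another 2 windows with 6 sites lay on chromosome 3, at 49 to 50 Mb and at 43 to 44 Mb. Strong MYC-only sites were 1 of 15 strong MYC peaks in the chromosome 16 window and 0 of 22 at 33 to 34 Mb of chromosome 1. In the chromosome 3 windows they were 3 of 30 at 49 to 50 Mb and 3 of 22 at 43 to 44 Mb. Among the 20 windows with 5 or more sites, the share was highest on chromosome 4, where 5 of 8 strong MYCN peaks at 56 to 57 Mb and 5 of 11 at 35 to 36 Mb were such sites. Strong MYC-only sites were found in 576 of the 808 windows with a site (71.3%, 68.1 to 74.3) and in 245 of the 370 with 2 or more sites (66.2%, 61.3 to 70.8), against 454 of the 561 windows with a MYCN peak and no site (80.9%, 77.5 to 84.0).

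Most sites stood apart from each other. The median distance to the next strong MYCN-only site was 281 kb, with quartiles of 99.5 and 634 kb, and the loneliest had none within 6802 kb. Chained at gaps of at most 50 kb, 201 sites (14.3%, 12.6 to 16.3) fell into 95 groups, of which 87 were pairs, 5 had 3 sites and 3 had 4 sites. The median group spanned 26.8 kb, and 57 of the 95 had no MYC peak inside. That count is partly set by the rule. It keeps MYC peaks more than 1000 bp from each site, so sites very close together could have none between them. The 2716 strong MYC-only sites were 6.83% of the 39793 strong peaks of the MYC list. Of these, 810 (29.8%) lay in 357 groups, and the largest group had 5 sites. The larger number of MYC-only sites brings them closer together, so the 2 grouped shares cannot be compared as a preference.

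The group with the highest scores lay on chromosome 6 and spanned 7.25 kb, from 43357148 to 43364394. It held 4 sites, the only MYCN peaks inside, with no MYC peak. They came as 2 close pairs. The first pair had scores of 656 and 515, with widths of 982 and 323 bp, and was 632 bp apart. The second pair had scores of 196 and 812, with widths of 241 and 522 bp, and was 278 bp apart. A gap of 4269 bp separated the pairs. The interval without MYC peaks around them was 71.1 kb long. At its near side lay 3 shared MYCN peaks with scores of 122, 160 and 61, whose MYC counterparts had scores of 255, 312 and 161. At its far side a shared MYCN peak of score 106 had a MYC counterpart of score 67. Scores of the 2 lists need not be on the same scale. In the MYCN list all 4 scores were above the 160 of the highest other peak within 50 kb.

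A group of 4 on chromosome 1, from 59143577 to 59261179, had a different build. Its sites had scores of 122, 127, 100 and 313 and lay 21.5 to 48.9 kb apart. They were set among shared peaks, since the 118 kb held 16 MYCN peaks, 9 of them shared, and 8 MYC peaks, none of them MYC-only. The highest of the 4, at 59260670 to 59261179, closed the group, and no MYC peak lay within 24.6 kb of it. The same megabase held a close pair farther along, at 59344999 to 59345342 and at 59345467 to 59345789, with scores of 134 and 274 and 124 bp between them.

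The third group of 4, on chromosome 17 from 40081169 to 40118067, was made of sites of nearly equal and small width. They were 209, 215, 211 and 213 bp wide, with scores of 131, 116, 131 and 99. Such widths lie near the lower end of the list. Weaker MYCN-only peaks over 1000 bp from a MYC peak had a lowest and a 10th percentile width of 200 bp. The first site of the group lay 31.1 kb before the second, and the last 3 lay within 5.57 kb. This stretch was rich in strong shared peaks, the strongest a MYCN peak of 1649 bp and score 837 that overlapped 2 MYC peaks of scores 158 and 977. Within 50 kb of the group there were 18 MYCN and 14 MYC peaks in all. These 4 sites were not among the strongest peaks of their own surroundings.

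The groups of 3 lay on chromosomes 22, 25, 20, 9 and 7. On chromosome 22, at 14325623 to 14372266, the scores were 117, 227 and 202 and 1 shared MYC peak lay inside. On chromosome 25, at 18971867 to 18984932, the scores were 122, 121 and 140, with no MYC peak inside. On chromosome 20, at 1270117 to 1311178, the scores were 144, 133 and 100, and the sites alternated with shared peaks, of which 3 lay inside in either list. The groups on chromosomes 9 and 7 belonged to stretches nearly free of MYC peaks. On chromosome 9, at 11141578 to 11173249 with scores of 111, 101 and 114, the group lay in an interval without MYC peaks of 94.8 kb that held 6 MYCN peaks. On chromosome 7, at 28649600 to 28698244 with scores of 101, 111 and 107, that interval was 136 kb long and held 4 MYCN peaks.

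**Figure D3:**
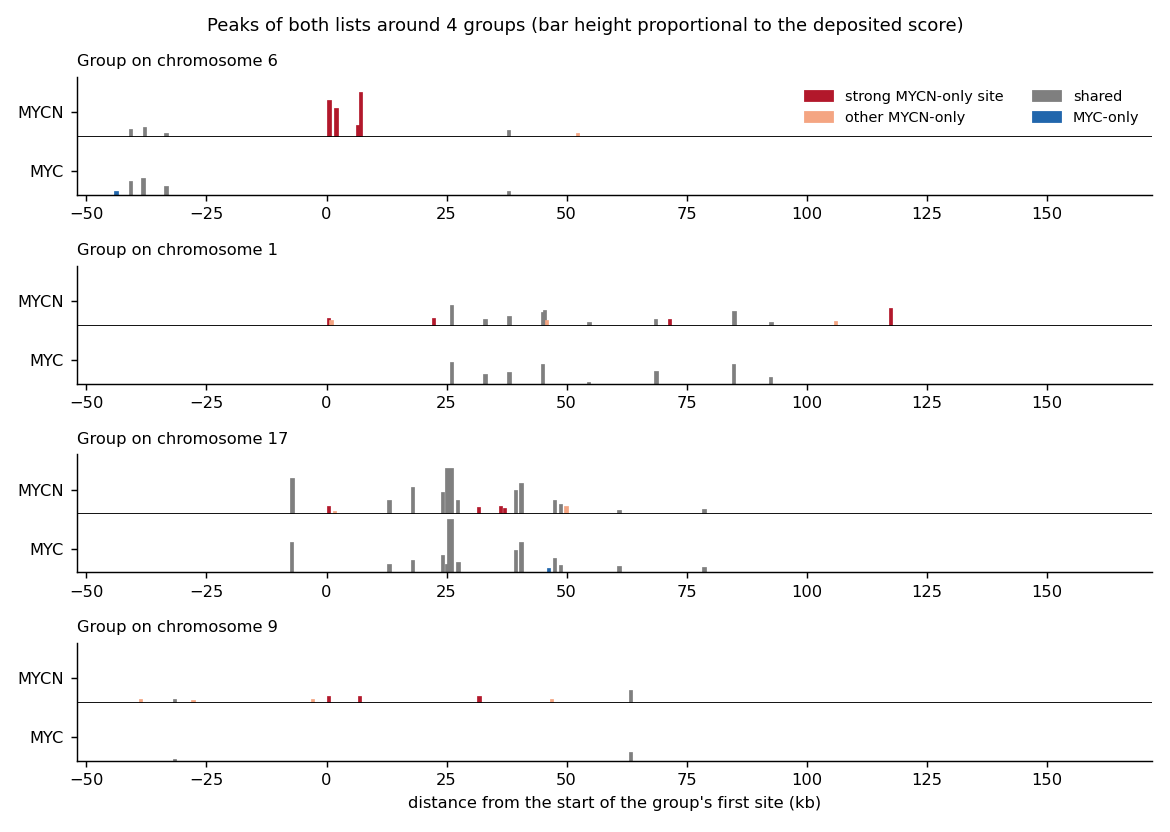
Peaks of the MYCN list (upper row) and the MYC list (lower row) within 50 kb of 4 groups of strong MYCN-only sites, by distance in kb from the start of the first site; bar height is proportional to the deposited score, and peaks narrower than 0.7 kb are drawn 0.7 kb wide. The chromosome 6 group, with scores of 656, 515, 196 and 812, stands alone, while the chromosome 1 and 17 sites lie among shared peaks.

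Single sites covered the whole range from crowded to empty surroundings. The nearest MYC peak was a median of 8.73 kb away, with quartiles of 4.00 and 18.8 kb, where the rule sets the lower limit. It lay within 2000 bp of 106 sites (7.56%), within 10 kb of 770 (54.9%) and within 50 kb of 1339 (95.5%). The sites nearest the limit were at chr10:43717891-43718182, 1010 bp from a MYC peak, and at chr5:48658572-48658775, 1012 bp away. Just outside the limit, MYCN peaks at chr5:44839145-44839434 and at chr9:44629743-44630029 were 990 and 978 bp from a MYC peak, with scores of 100 and 130. In all, 160 strong MYCN peaks were left out because a MYC peak lay near without overlapping, and these had a median score of 122 and were 286 bp wide at the median.

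The nearest other MYCN peak was a median of 8.32 kb from a strong MYCN-only site and 5.74 kb from a strong shared site. The rule bears on these values, because keeping MYC peaks 1000 bp away also keeps away most shared MYCN peaks. Counting only MYCN peaks more than 1000 bp away, the medians were closer, at 8.80 kb for MYCN-only sites and 7.15 kb for strong shared sites, and the quartile ranges overlapped. A MYCN peak more than 1000 bp and at most 10 kb away was found at 775 MYCN-only sites (55.3%, 52.7 to 57.9) and at 21255 strong shared sites (64.8%, 64.3 to 65.3). In the 4 bands below a score of 300 this median distance was longer at MYCN-only sites, at 8.55 to 11.1 kb against 6.89 to 7.17 kb. From 300 on it was shorter, at 6.67 kb for 31 MYCN-only sites and 7.50 kb for strong shared sites.

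The most isolated site, at chr3:47193776-47194097, scored 184 and was 178 kb from a MYC peak and 192 kb from another MYCN peak. A site at chr16:10525851-10526199, with a score of 165, had no other peak of either list within 118 kb. Sites at chr15:7676868-7677103 and at chr7:67430198-67430535, with scores of 101 and 154, stood 97.3 and 82.1 kb from the nearest peak. Such isolation was rare, since 14 sites (0.999%) had no other peak of either list within 50 kb and 193 (13.8%) had none within 20 kb. A site far from MYC peaks was not always alone in its own list. At chr17:46279844-46280332, with a score of 117, a site lay 138 kb from the nearest MYC peak but had 4 other MYCN peaks within 50 kb. With no MYC peak that near, these were bound to be MYCN-only.

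At the crowded end, a site at chr10:16779266-16779497, with a score of 156 and a width of 232 bp, had 29 other MYCN peaks and 30 MYC peaks within 50 kb. A site at chr8:36420213-36420459 had 26 and 24, and a site at chr17:46649348-46649570 had 23 and 23. Their scores of 114 and 139 were modest. At chr16:20248598-20248930, a site with a score of 139 had 20 other MYCN peaks, 8 of them MYCN-only, and 14 MYC peaks, 0 of them MYC-only. In the first 3 of these places both lists were dense. There, 3, 4 and 3 of the other MYCN peaks were MYCN-only, and 1, 1 and 3 of the MYC peaks were MYC-only.

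The stretch without any MYC peak around a site often held more than 1 MYCN peak. Values are per site, so a stretch with several sites was counted once for each of them. The interval between the MYC peaks on either side of a site had a median length of 42.1 kb, with quartiles of 20.7 and 77.8 kb, and the longest was 422 kb. In 797 cases (56.8%) the site was the only MYCN peak in it, in 377 (26.9%) there was 1 more, and in 228 (16.3%) there were 3 or more MYCN peaks in all. The longest series that held a site had 8 MYCN peaks in 167 kb on chromosome 17. It included sites at 36794207 to 36794960, with a score of 251 and a width of 754 bp, at 36876364 to 36876638 and at 36880413 to 36880743, both with a score of 122. Series of 7 MYCN peaks held a site of score 224 at chr7:44648242-44648525 and a site of score 195 at chr3:45027248-45027924.

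The MYCN peaks next to a strong MYCN-only site were more often MYCN-only themselves than those next to a strong shared site. Of the 2803 flanking MYCN peaks, 829 were MYCN-only (29.6%, 27.9 to 31.3), against 11138 of 65557 next to strong shared sites (17.0%, 16.7 to 17.3) and 18.4% of all MYCN peaks. Flanks within 1000 bp are shaped by the rule, which leaves hardly any shared peak there. Some flanks were other strong MYCN-only sites, which are MYCN-only by the rule. Such flanks were not left out, here or among the more distant flanks, and their number was not counted. Of the 2728 flanks more than 1000 bp away, 757 were MYCN-only (27.7%, 26.1 to 29.5), against 10379 of 59531 at strong shared sites (17.4%, 17.1 to 17.7). In the 5 bands of score, 26.7% to 29.2% of these more distant flanks of MYCN-only sites were MYCN-only. At strong shared sites the range was 17.0% to 17.7%. The upper bands held few flanks, with 50 of 183 MYCN-only at scores of 200 to 299 (27.3%, 21.4 to 34.2). From 300 on it was 16 of 59 (27.1%, 17.4 to 39.6), an interval that reached down to the 17.4% of strong shared sites. These intervals cover counting error within 1 library per transgene, and neighbouring peaks are not independent.

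The surroundings held about as many MYCN as MYC peaks, although the MYC list was longer. Within 50 kb there was a mean of 5.02 other MYCN peaks and 4.97 MYC peaks around a strong MYCN-only site. Around a strong shared site the means were 6.30 other MYCN peaks and 7.22 MYC peaks besides those overlapping the site. MYCN peaks outnumbered MYC peaks at 540 MYCN-only sites (38.5%) and were outnumbered at 506 (36.1%), and at strong shared sites these shares were 23.8% and 55.7%. The list-only peaks differed in the same direction. Around MYCN-only sites there was a mean of 1.26 other MYCN-only and 1.24 MYC-only peaks, and around strong shared sites a mean of 0.983 MYCN-only and 1.99 MYC-only peaks. Shared MYCN peaks were fewer around MYCN-only sites, with a mean of 3.76, against 5.32 around strong shared sites. These counts include the 1000 bp next to a site, which the rule holds free of MYC peaks. Other strong MYCN-only sites, which are MYCN-only by the rule, are counted too. They lay within 50 kb of 201 of the 1402 sites (14.3%).

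The lower density was not limited to the closest distances. From 2 to 100 kb from the centre of a strong MYCN-only site, MYCN peaks averaged 5.05 per 100 kb and MYC peaks 5.16 per 100 kb, with no rise towards the site. Around strong shared sites, MYCN peaks averaged 5.97 per 100 kb and MYC peaks 6.86 per 100 kb, and both were densest at 6 to 8 kb, with 7.09 and 8.18 per 100 kb. Within 250 kb the median numbers were 25 other MYCN and 25 MYC peaks around MYCN-only sites, and 27 other MYCN and 31 MYC peaks around strong shared sites.

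**Figure D4:**
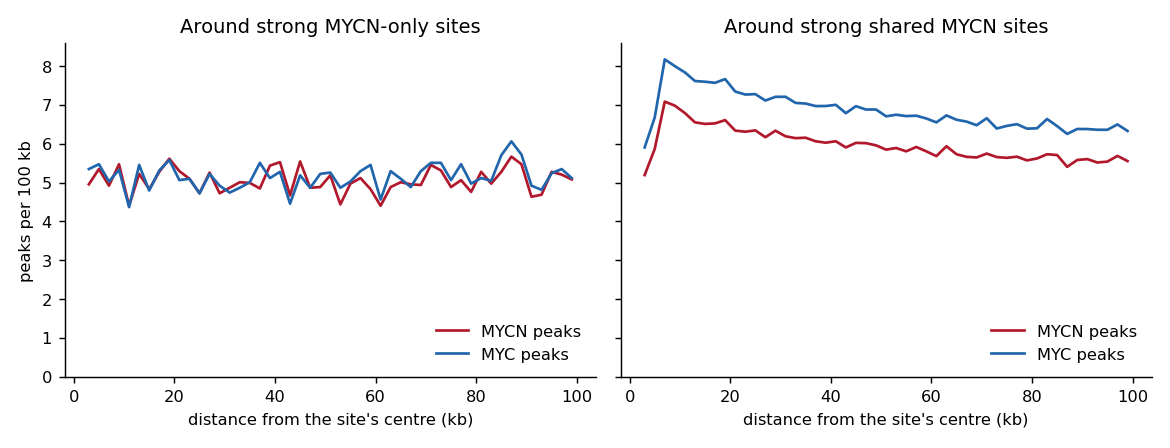
Mean number of MYCN and MYC peaks per 100 kb by distance in kb from the centre of strong MYCN-only sites (left) and strong shared MYCN sites (right), in bins of 2 kb from 2 kb on. On the left both lines run between 4.37 and 6.06 and cross repeatedly; on the right the MYC line lies above the MYCN line throughout.

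Among the remaining list-only peaks, the MYCN-only share was larger within 50 kb of strong MYCN-only sites than far from them. Peaks within 1000 bp were left out, since the rule allows no MYC peak there. From 1 to 10 kb from a site, 234 of 553 such peaks were MYCN-only (42.3%, 38.3 to 46.5), and at 10 to 50 kb the share was 45.9% (44.0 to 47.9). It was 37.9% at 50 to 250 kb, 32.2% at 250 to 1000 kb and 24.4% (23.5 to 25.4) beyond 1000 kb. Over all distances it was 33.3%, a value that includes the 51 peaks within 1000 bp. The intervals of the 2 nearest classes overlapped, and the share was lower in each class beyond 50 kb than in the class before it. The peaks come from the same 2 libraries as the sites, and neighbouring peaks are not independent.

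Sites that were open in both libraries also leaned to MYCN near strong MYCN-only sites. For this, 52911 pairs of a MYCN and a MYC peak that overlapped each other and no other peak were ranked by score within each list, over the same pairs, and the MYC rank was taken from the MYCN rank in points of 100. The median difference was 2.67 points for 941 pairs within 10 kb of a site (58.8% ranked higher in MYCN, 55.6 to 61.9). At 10 to 50 kb it was 2.50 points, at 50 to 250 kb 1.01 points and at 250 to 1000 kb -0.41 points. For 10862 pairs beyond 1000 kb it was -3.70 points (39.1% ranked higher in MYCN, 38.2 to 40.0), against -0.36 points over all pairs. The differences were small beside the spread between pairs, whose quartiles within 10 kb were -8.24 and 16.4 points. On all 25 chromosomes the median difference was higher within 50 kb of a site than beyond. The smallest step was on chromosome 20, at -0.32 within and -0.50 beyond, and the medians on chromosome 17 were 6.83 within and 0.44 beyond. The median within 50 kb was also negative on chromosomes 11, 19 and 23, at -0.40, -0.71 and -0.13. On those chromosomes and on chromosome 20 the median near a site was below 0, but less so than beyond. On all other chromosomes the median within 50 kb was positive. Of the negative medians, those of chromosomes 20 and 23 were above the -0.36 over all pairs. The rule used no score of a shared pair, but the pairs come from the same 2 libraries as the sites.

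**Figure D5:**
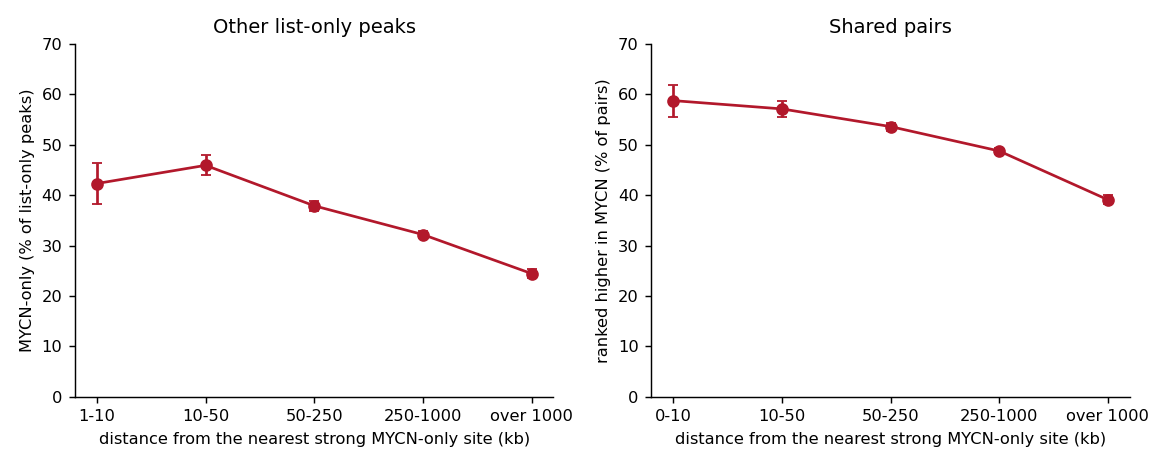
By distance in kb from the nearest strong MYCN-only site: left, MYCN-only peaks as a percentage of all other list-only peaks; right, shared pairs ranked higher in the MYCN list as a percentage of pairs, both with 95% Wilson intervals. The left share is 42.3% at 1 to 10 kb, 45.9% at 10 to 50 kb and 24.4% beyond 1000 kb, and the right share falls from 58.8% to 39.1%.

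A weaker MYCN-only peak, with a score below 99, was present within 50 kb of 886 MYCN-only sites (63.2%, 60.6 to 65.7) and of 18135 strong shared sites (55.3%, 54.8 to 55.8). This range includes the 1000 bp next to a site, which the rule holds free of MYC peaks. Within 5000 bp the shares were closer, at 9.34% (7.93 to 11.0) and 7.77% (7.48 to 8.06), and their intervals overlapped. Of the weaker MYCN-only peaks, the 9542 that lay over 1000 bp from a MYC peak had a median width of 239 bp.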

How the data were processed

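ATAC-seq was done on 1 MYCN and 1 MYC library. Per the submitters' processing notes, Bowtie2 2.2.1, MACS2 2.1.0 and the build danRer7 were used. Duplicate removal, Tn5 shift, control and settings are not given in the sources used here. Each library has its own peak list, as the authors deposited it, with a whole-number score per peak whose definition no header states. Scores served to rank and select peaks inside their own list. Each list's lowest score was 13.

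Gaps were counted as bases between peak edges, and starts from 1. Python 3.11.15, numpy 2.4.6, pandas 2.3.3, scipy 1.17.1 and matplotlib 3.10.9 were used. The code was tested on simulated lists, and bedtools 2.31.1 also gave 1402 sites. Wilson intervals (95%) cover counting error only. Named regions were the highest-scoring site of each chromosome, the 8 largest groups, the 5 sites at each extreme of width, isolation and crowding, the sites beside the distance limit and the 3 fullest megabases. Series within intervals without MYC peaks, comparisons by distance and those without peaks within 1000 bp were added later. The sites and comparisons were chosen with earlier results of these data known.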

Additional observations from a re-analysis of the deposited data

How the results depend on the processing

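Of 64 alternative values, 36 stayed within the interval of the main value or within 1.5 times a main count. Leaving out chromosome 4 or merging MYCN peaks closer than 100 bp moved none of the 9 values tried beyond its interval. With scores at or above the 75th percentile (183), 176 sites remained, of median width 378 bp, with 4.55% in groups and 9.87 kb to a MYC peak. Without a score limit there were 10944 sites. Without a distance limit there were 1562 sites, with 16.8% in groups, 7.42 kb to a MYC peak and 7.15 kb to a MYCN peak. With 5000 bp there were 957, of width 331 bp, with 12.1% in groups, 14.4 kb to a MYC peak, 11.9 kb to a MYCN peak, 34.7% of flanks MYCN-only and a median of 3 MYC peaks within 50 kb. Trimming the MYC list to the MYCN length gave 1920 sites of width 328 bp, with 18.1% in groups, 9.86 kb to a MYC peak and 34.4% of flanks MYCN-only. Flanks more than 1000 bp away, a choice made after seeing the data, were 27.7% MYCN-only, with other strong MYCN-only sites still counted. Gaps of 10 and 100 kb put 3.85% and 25.1% of sites in groups. In windows of 10 and 250 kb the median number of MYC peaks was 1 and 25. On chromosome 4 the share of strong MYCN peaks that were strong MYCN-only sites was 1.42 times that of the genome. Its sites per Mb, however, were 0.904 times those of the genome, a reversal. Both values are for the whole chromosome, whose parts were unlike. Before 22 Mb it had 11 sites among 538 strong MYCN peaks, and from there on 47 among 461. Strong MYC-only sites numbered 3564 at a score of 99 and 3121 without a distance limit. The MYCN-only share of other list-only peaks was 13.3 points higher from 1 to 50 kb from a site than beyond. Under 6 alternatives chosen after seeing the data it was 10.6 to 16.6 points higher. The 16.6 came from the limit of 5000 bp, where peaks within 5000 bp of a site were left out instead. The median rank difference of shared pairs was 2.54 to 4.11 points higher within 50 kb under these alternatives (3.20 as reported). No replicate could be left out. No paired analysis was possible because both transgenes had a single library. Unknown depth limits every count of sites without a MYC peak.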
